A study of Drosophila melanogaster with 34 samples.

Results

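The CBP binding sites described here are the broad ones at which neither CoRest-C nor Rpd3 was listed. Members were taken from the list of CBP sites in mushroom body (MB) nuclei of *Drosophila* by 2 measured values: a width of at least 1000 bp, and no bp shared with any CoRest-C or Rpd3 site. They were 657 of the 6684 CBP sites and covered 941 kb. The other CBP sites fell into 781 broad sites that shared sequence with a CoRest-C or Rpd3 site, 3834 narrow sites without these proteins and 1412 narrow sites with them.

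CBP, the product of *nej*, is a histone acetyltransferase that is brought to enhancers and promoters by DNA-binding factors and acetylates histones there. Rpd3 is a histone deacetylase, which acts on the same marks in the opposite direction, and full-length CoRest is a scaffold that links it to chromatin. CoRest-C, the form mapped here, is a variant with a truncated N-terminus. CoRest-C and Rpd3 are together called the deacetylase proteins below, though of these only Rpd3 is itself a deacetylase. The paper proposes that CoRest-C, when acetylated by CBP, attaches to Rpd3 and destabilizes the complex of Rpd3 with full-length CoRest. GAGA factor, the product of *Trl*, binds GA repeats at many promoters of *Drosophila* and helps to keep them open. The MB is a paired brain structure that stores olfactory memory.

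The series has 34 samples, 18 of ChIP-seq, 1 of input DNA and 15 of nuclear RNA-seq. All carry the line label CS10, and by the methods the lines had been outcrossed to the control line w(CS10). The flies expressed FLAG-KASH, a tag of the nuclear envelope, and CsChrimson, a cation channel opened by red light, in MB neurons under the *MBp-LexA* driver, and MB nuclei were pulled out of fixed head homogenates by the FLAG tag. Flies for ChIP-seq also carried CoRest-C::myc under *MBsw*, a driver induced by the drug RU, and flies ate food with all-*trans*-retinal, which CsChrimson needs. The *MBp-LexA* driver holds an enhancer fragment of *Mef2*, a gene that has a member itself. ChIP-seq groups were naive flies and flies given 5 min of red light, with 3 replicates per protein. Nuclear RNA came from 5 groups of 3 libraries: naive flies, flies taken right after 5 min of light, and flies left to rest for 5, 10 or 15 min after it. The site lists hold peaks found in at least 2 of the 3 illuminated replicates, so binding has no replicate spread here, and binding in naive flies was not analysed here.

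Total counts of the RNA libraries lay between 10392334 and 18809246, and the common biological coefficient of variation was 13.4%. The naive library 2 stood apart, and a chi-square statistic of its counts, divided by the degrees of freedom, was 32.3 and 28.5 against the other naive libraries and 6.17 between these. All 18 genes of an MB neuron list were detected well enough to be tested, with a summed level of 6724 to 6913 normalized CPM in naive libraries. Genes of other cells were detected too. A list of 14 photoreceptor genes summed to 29383 to 33904 normalized CPM in naive libraries, 27962 to 28838 at 10 min of rest and 41776 to 50007 at 15 min of rest, and a list of 8 fat body genes to 15028 to 15107 in naive libraries and 21794 to 23071 at 15 min of rest. None of the photoreceptor or fat body genes was at 0 in all libraries. Fewer nuclei of a type and less RNA per nucleus cannot be told apart in such bulk samples.

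Windows of 300 bp centred on the summits of 6 members are shown, because GA repeats were present at nearly all summits of members. They are read on the forward strand of the genome of release 6, whose coordinates are those of dm6, from the RefSeq assembly, and hold no annotated exon. Capitals mark every GAGAG or its complement CTCTC, the element that GAGA factor binds. The window at chr3L:14756404-14756703 lies in an intron of *Trl* at the widest member, with 8 matches. *Eip74EF* has 16 matches at chr3L:17563639-17563938, *Hr4* has 6 at chrX:1976187-1976486, *Atf3* has 13 at chrX:1276356-1276655 and *Mnt* has 9 at chrX:3677553-3677852. The window at chrX:16425164-16425463 in an intron of *hang*, one of the members without a match at the summit, has none.
Trl: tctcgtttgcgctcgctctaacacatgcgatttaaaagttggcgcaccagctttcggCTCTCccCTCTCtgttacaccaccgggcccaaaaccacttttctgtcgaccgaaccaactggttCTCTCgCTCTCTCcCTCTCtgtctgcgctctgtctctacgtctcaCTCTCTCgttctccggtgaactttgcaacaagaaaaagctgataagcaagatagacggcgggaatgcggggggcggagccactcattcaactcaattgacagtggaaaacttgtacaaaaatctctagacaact
Eip74EF: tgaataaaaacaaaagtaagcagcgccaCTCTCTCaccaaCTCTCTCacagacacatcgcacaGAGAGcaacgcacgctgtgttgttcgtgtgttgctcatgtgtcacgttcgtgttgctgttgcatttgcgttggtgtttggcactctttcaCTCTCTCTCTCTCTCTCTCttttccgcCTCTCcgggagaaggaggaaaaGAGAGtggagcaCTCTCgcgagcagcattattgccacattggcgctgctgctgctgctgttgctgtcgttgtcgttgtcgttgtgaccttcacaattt
Hr4: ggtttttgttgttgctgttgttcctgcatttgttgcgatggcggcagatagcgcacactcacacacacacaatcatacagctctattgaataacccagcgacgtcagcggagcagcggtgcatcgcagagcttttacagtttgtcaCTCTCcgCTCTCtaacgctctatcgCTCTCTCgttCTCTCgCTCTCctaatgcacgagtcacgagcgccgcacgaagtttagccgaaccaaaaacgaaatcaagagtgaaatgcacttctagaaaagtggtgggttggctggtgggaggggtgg
Atf3: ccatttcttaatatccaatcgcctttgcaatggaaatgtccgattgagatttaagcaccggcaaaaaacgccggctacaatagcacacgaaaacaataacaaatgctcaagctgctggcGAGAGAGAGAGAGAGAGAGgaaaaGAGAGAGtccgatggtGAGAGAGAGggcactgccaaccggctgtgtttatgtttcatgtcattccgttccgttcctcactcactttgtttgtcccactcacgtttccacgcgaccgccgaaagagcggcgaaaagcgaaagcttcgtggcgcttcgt
Mnt: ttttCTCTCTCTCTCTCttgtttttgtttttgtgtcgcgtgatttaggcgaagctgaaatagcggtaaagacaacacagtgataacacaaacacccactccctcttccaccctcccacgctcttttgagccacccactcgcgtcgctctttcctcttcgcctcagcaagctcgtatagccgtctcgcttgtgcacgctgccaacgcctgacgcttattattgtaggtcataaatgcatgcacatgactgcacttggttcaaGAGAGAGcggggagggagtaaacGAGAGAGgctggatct
hang: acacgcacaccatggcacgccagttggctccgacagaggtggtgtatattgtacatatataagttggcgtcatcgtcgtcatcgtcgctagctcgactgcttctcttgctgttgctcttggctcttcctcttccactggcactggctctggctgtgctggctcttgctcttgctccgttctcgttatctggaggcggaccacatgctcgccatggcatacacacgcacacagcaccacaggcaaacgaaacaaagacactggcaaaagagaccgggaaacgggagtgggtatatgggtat

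The element occurred at the summit of nearly every member. GAGAG on either strand was present in 613 of the 657 windows of 300 bp at the summits (93.3%), with a median of 4 matches and up to 23 in 1 window, and 318 windows (48.4%) held 5 or more. Of all 300 bp tiles of the same chromosome arms 30.2% held it, and of the windows centred on annotated start sites 32.8%. In windows centred on the midpoints of members, the share was 65.3% (429 windows). The summit lay a median of 255 bp from the midpoint, and the summit windows were added after the data had been seen. Members away from start sites had it in 91.4% of 185 cases and those at start sites in 94.1% of 472, and the share on each of the 5 long chromosome arms was between 90.2% and 97.8%. Over whole members, 646 (98.3%) held at least 1 match, at a median of 6.63 matches per kb against 1.57 per kb of the genome.

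Matches were packed close to the summit. In steps of 50 bp they reached 34.5 per kb within 50 bp of the summit, and were at 4.17 per kb in the step centred 225 bp downstream and 2.50 per kb in that centred 1025 bp downstream. The height at the summit was 27.8 per kb at broad sites with the deacetylase proteins, 20.4 at narrow CBP-only sites and 9.12 at narrow sites with the deacetylase proteins. The 4 classes differed in strength, and within classes the element went with fold enrichment. Of members with a fold enrichment under 5, 53.6% of 28 had the element at the summit, rising to 80.8% of 130 between 5 and 10, 98.6% of 220 between 10 and 20 and 98.9% of 279 at 20 or more. Narrow CBP-only sites of the same strengths had it in 58.0%, 83.8%, 97.0% and 98.3%, and broad sites with the deacetylase proteins in 37.5%, 68.4%, 91.5% and 98.6%. At a like strength, the shares of members and of narrow CBP-only sites lay within 5 percentage points of each other. The 44 members without a match had a median fold enrichment of 5.62, against 23.6 for those with 5 or more matches.

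**Figure D1:**
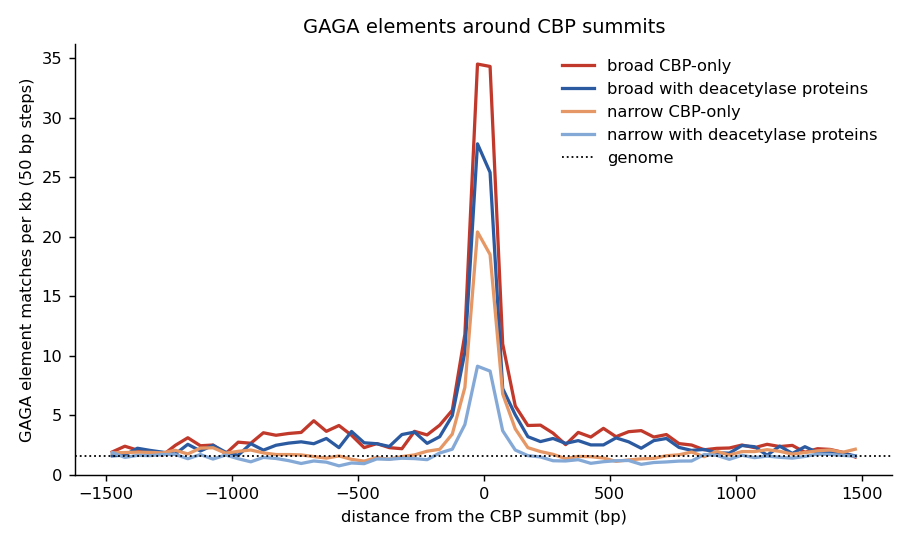
GAGA elements around CBP summits. Lines give matches to GAGAG on either strand per kb, in steps of 50 bp, against the distance from the deposited summit for the 4 classes of CBP sites, and the dotted line gives the genome. All 4 classes peak at the summit, and the broad CBP-only sites reach 34.5 per kb against 1.57 in the genome.

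Among the other motifs, CACACACA was also more frequent at members than in the genome. It was present in 19.6% of the midpoint windows of members, 5.94% of genome tiles and 26.2% of windows at broad sites with the deacetylase proteins. The full cAMP response element TGACGTCA, which CREB binds, was present in 0.609% of member windows and 0.409% of tiles, and in 1.51% of windows at narrow CBP-only sites. The share of the AP-1 element TGANTCA was 4.72% against 5.86% of tiles, and that of the Zelda element CAGGTA was 4.87% against 6.81%. The DNA replication-related element TATCGATA, common at promoters of housekeeping genes, was in 0.457% of member windows, 0.848% of tiles and 6.15% of windows centred on start sites. Midpoints of members lay a median of 419 bp from a start site, so many member windows held none and the last share is not a like comparison. TAATTA, the core bound by many homeodomain proteins, was in 16.3% of midpoint windows of members against 17.9% of tiles, and TATAAA in 32.0% against 30.2%. In the summit windows, added after the data had been seen, the shares were lower, 7.76% and 19.6%, at a median GC content of 47.3% against 42.3% at midpoints and 42.0% for tiles. Both strands were searched, and CTCTC within a longer repeat was counted at each position. A match is a run of letters, and binding of these factors was not measured.

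Width and overlap chose the members, so their widths and enrichments are given as a description. The median width was 1289 bp, the middle 50% lay between 1120 and 1577 bp, and the widest member had 5799 bp. Fold enrichment had a median of 17.7 and a range from 3.48 to 56.2, and 267 members (40.6%) had the highest p score the software wrote. The median fold enrichment was 18.5 at broad sites with the deacetylase proteins, 6.04 at narrow CBP-only sites and 5.34 at narrow sites with those proteins. Just inside the width threshold lay a site of 1000 bp at *Ctps* (fold enrichment 3.51), a site of 1000 bp on chromosome 4 and a site of 1001 bp in *Antp* (6.80). Just outside it lay sites of 999 bp at *Syx4* and *kirre* , of 999 bp at *wrd* (13.0) and of 998 bp at *en* (32.0).

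The widest member, chr3L:14754695-14760494, covered start sites of *Trl* itself and of *CG42507*, with its midpoint in a 5′ UTR of *Trl* and a fold enrichment of 47.5. The nearest Rpd3 and CoRest-C sites were 24.9 and 24.8 kb away. Next in width came an intergenic site of 4093 bp, chr3L:10736708-10740801, 33.2 kb from the nearest start site (*CG43245*) with a fold enrichment of 47.4. A site of 3645 bp at chrX:11713566-11717211 covered start sites of *Amun* and *prtp*. A pair of glycolytic genes held members among the widest, *Hex-A*, a hexokinase gene (3209 bp, chrX:9583364-9586573), and *PyK*, the pyruvate kinase gene (2886 bp, chr3R:22367185-22370071). Genes of transcription factors held the others, among them *Atf3*, a bZIP factor of stress responses (3147 bp, chrX:1274735-1277882), *jim*, a zinc finger gene (3041 bp, chr3L:22822338-22825379), the forkhead gene *CHES-1-like* (2865 bp, chrX:7690677-7693542) and *Mnt*, a partner of Max (2861 bp, chrX:3686705-3689566). The remaining one of 3003 bp, chr3L:19894918-19897921, covered the start of the lncRNA gene *CR32218* inside *Mi-2*, which encodes a chromatin remodeler.

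The highest fold enrichment, 56.2, was at chr2L:12542948-12544320 in an intron of *bun*, a TSC22 family gene, over the start of *lncRNA:CR42746*. *Hr4*, a nuclear receptor gene, followed with 50.8 at an intronic site 16.1 kb from a start site (chrX:1975656-1976719). Sites at start sites of *aralar1*, which encodes a mitochondrial carrier (50.4, chr3R:30449874-30451229), *18w*, a Toll family receptor gene (49.8, chr2R:20110596-20111758) and *Glyp*, the glycogen phosphorylase gene (48.9, chr2L:2130088-2131154) came next. A site in an intron of *rdx* had 46.7, a site over the start of *lncRNA:CR43641* had 46.1, and a site over starts of *bun* and *mir-967* had 45.9. Across the 657 members, width and fold enrichment had a Spearman correlation of 0.22, given as a description of sites from 1 list.

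**Figure D2:**
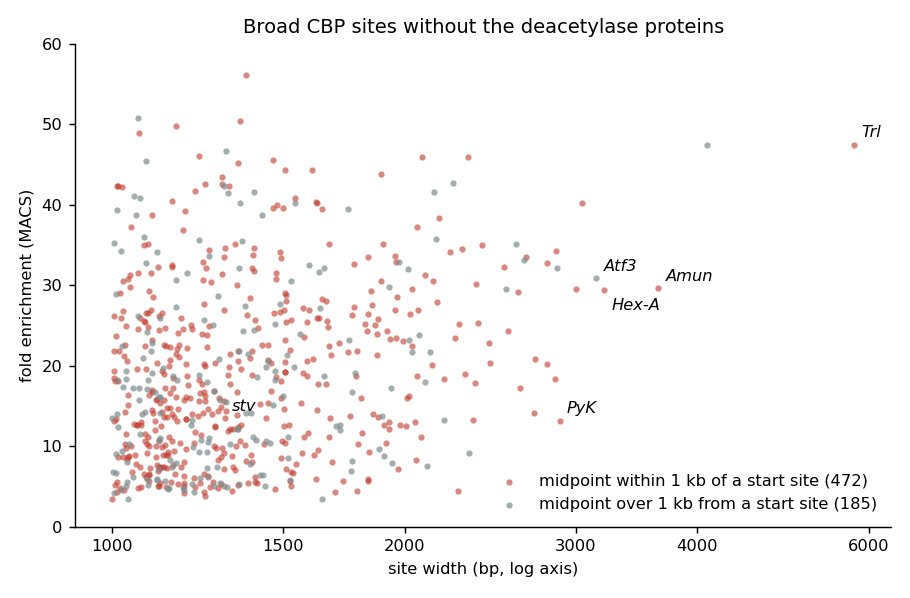
Width (log axis) and fold enrichment of the 657 broad CBP-only sites. Each point is a site, in red with its midpoint within 1 kb of an annotated start site (472) and in grey further away (185), with named genes beside some wide sites. Most points lie between 1000 and 2000 bp at any fold enrichment, and the site at *Trl*, 5799 bp wide, lies apart on the right.

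Most members lay at promoters, fewer than among sites with the deacetylase proteins. The midpoint was within 1 kb of an annotated start site for 472 members (71.8%, exact 95% binomial interval 68.2 to 75.3, for counting error only), 88.9% of broad sites with the deacetylase proteins, 56.8% of narrow CBP-only sites and 90.4% of narrow sites with the deacetylase proteins. A start site lay inside 454 members (69.1%). By annotation, 364 midpoints (55.4%) were intronic, 130 (19.8%) intergenic and 122 (18.6%) in a 5′ UTR, and 71 members (10.8%) lay over 5 kb from any start site. These distal members had a median fold enrichment of 18.9, and those at start sites 18.1. With only the 5′-most start site of each gene the share near start sites was 48.9%. Members were found at 6.07 per Mb on X, between 3.96 and 5.08 per Mb on the arms of chromosomes 2 and 3, and at 2.97 per Mb on chromosome 4, where there were 4.

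Listed sites of the deacetylase proteins were often far away, and sites sharing a bp were left out by the rule. Binding below the cutoff of peak calling is not listed. The paper states that this cutoff may have made it underestimate overlaps. The nearest Rpd3 or CoRest-C site was a median of 9745 bp from a member, none lay within 10 kb of 325 members (49.5%), and 23 members (3.5%) had one within 500 bp. Narrow CBP-only sites, which also share no bp with these proteins' sites, were alike. Their median was 10500 bp, 51.3% had none within 10 kb and 3.44% had one within 500 bp. Members also lay near each other, with another member within 10 kb of 168 of them (25.6%).

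Genes were assigned to a member when their body or the 1 kb upstream shared sequence with it. This gave 731 genes, of which 625 are protein-coding, for 636 members, and 21 members had no gene. Of the 17179 genes of the count table with a position, 4.04% held a member. Of the 731 genes, 245 (33.5%) held a CoRest-C or Rpd3 site elsewhere in the same interval. They were long, with a median length of 10.9 kb against 2.45 kb for all tested genes. In naive nuclei their median level per kb of exon was 16.4 normalized CPM against 12.0 for all tested genes.

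Most genes (638) had 1 member, 71 had 2 and 22 had 3 or more. *Mnt* had the most, 8 sites of 1043 to 2861 bp along chrX:3672016-3696084, only 1 of them over a start site of the gene. *bun* had 7 along chr2L:12459781-12546812, and *phl*, the Raf kinase gene (annotated as *Raf*), had 5 along chrX:2292614-2307173. The ecdysone-induced nuclear receptor gene *Eip75B* also had 5, and *Eip74EF*, an Ets factor gene of the same early ecdysone response, had 4. All 9 of these were intronic and none covered a start site. *EcR*, the ecdysone receptor gene, had 4 on arm 2R, of which 2 covered a start site of the gene. The most distant lay in an intron, 17093 bp from the nearest start site of any gene. *Pdp1*, a bZIP gene of the circadian clock, *ps*, the homolog of the splicing regulator Nova, and the lncRNA gene *CR45054* had 4 each.

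The share of genes with a member differed widely between lists. The lists were chosen with earlier results of these data known, and long genes have more room for a site. A member was present at 11 of 23 RNA-binding neuronal regulators (47.8%), among them *Imp*, *pum*, *msi*, *shep*, *fne*, *heph* and *bru-2*. It was present at 9 of 22 nuclear receptor and ecdysone response genes (40.9%), at 8 of 42 homeodomain and patterning genes (19.0%, among them *hth*, *ct*, *pros* and *Antp*), and at 6 of 18 MB neuron genes (33.3%), *dnc*, *mamo*, *chinmo*, *Imp*, *Mef2* and *Eip93F*. The list of CBP and corepressor genes had 6 of 25 (24.0%), namely *Trl* and *psq*, whose products both bind GA repeats, the tramtrack repressor gene *ttk*, *Mi-2*, *HDAC4* and *trx*, which encodes a histone methyltransferase. The cAMP and calcium memory pathway had 7 of 30 (23.3%) and the activity-regulated factors 2 of 9 (22.2%). The shares were 8 of 89 for axon guidance and adhesion genes (8.99%), 4 of 38 for transmitter receptors (10.5%) and 4 of 25 for ion channels. Of genes of other cells, 2 of 9 glial, 1 of 14 photoreceptor, 1 of 9 fat body (*FASN1*, a fatty acid synthase gene) and 0 of 8 muscle genes held one. Lists drawn up after the members had been seen gave 9 of 24 genes of carbohydrate metabolism (*Hex-A*, *Eno*, *PyK*, *ImpL3*, *Glyp*, *Glycogenin*, *Treh*, *Pdk* and *Glut1*), 7 of 22 of Ras and MAPK signalling, among them *drk*, *csw*, *Ras85D* and *phl*, 4 of 15 clock genes, 5 of 11 stress factors and 5 of 11 genes of the *GstE* cluster (45.5% each).

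**Figure D3:**
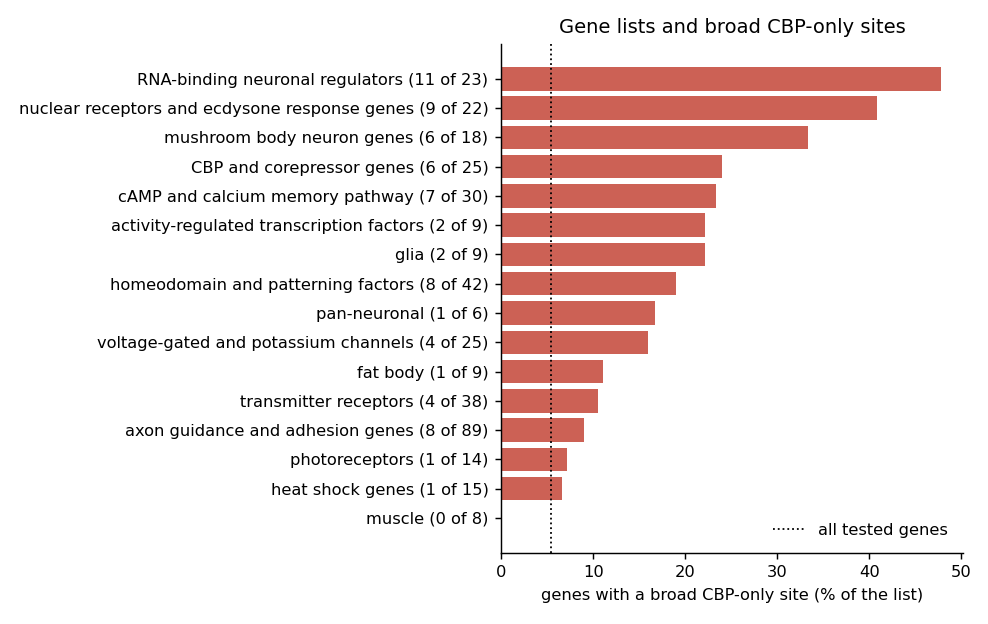
Share of the genes of each list that held a broad CBP-only site. Bars give the percent of listed genes, with counts beside the names, and the dotted line gives the 5.44% of all tested genes. Among the lists plotted, which leave out those drawn up after the members had been seen, RNA-binding regulators and nuclear receptor genes have the highest shares, 47.8% and 40.9%, and muscle genes are at 0.

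RNA was then compared between illuminated and naive flies, to ask how genes with these sites behaved after the red light that opens CsChrimson in MB neurons. No group had light without CsChrimson. Effects of the light itself and of MB activation therefore cannot be told apart. Each gene was tested with edgeR's quasi-likelihood test over 11670 genes, and called at a Benjamini-Hochberg adjusted p under 0.05. Of the 731 genes, 694 were in the count table and 623 passed the filter on low counts, which a gene can pass through its high group alone. The comparisons with naive flies share the naive libraries.

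At 10 min of rest, 214 of the 623 genes (34.3%) were higher than in naive flies and 46 (7.38%) lower, where 14.5% and 13.9% of all tested genes were called. Their median log2 fold change was 0.16 against -0.05 for all tested genes. Right after the light 66 (10.6%, background 4.88%) were higher and 9 (1.44%, background 3.45%) lower, and at 5 min of rest 134 (21.5%, background 8.75%) and 15 (2.41%, background 6.02%). At 15 min of rest 57 (9.15%, background 5.41%) were higher and 16 (2.57%, background 4.24%) lower. Scaled by library size alone, with which the median log2 fold change of all genes at 10 min was -0.17 instead of -0.05, 158 member genes (25.4%) were higher and 90 (14.4%) lower, against 10.6% and 24.4% of all genes. With that scaling 44 were higher and 17 lower right after the light (7.06% and 2.73%, against 3.56% and 4.89% of all genes). At 5 min these were 85 and 34 (13.6% and 5.46%, against 5.97% and 11.1%), and at 15 min 40 and 31 (6.42% and 4.98%, against 3.77% and 8.06%). Without light replicate 3 the share higher right after the light was 5.89%, against 2.99% of all genes. Without replicate 2 of the 10 min group the share lower at 10 min was 4.75%, against 9.24%. The share lower right after the light was 0.795% without light replicate 2 and 3.33% without naive replicate 2, against 2.23% and 3.64% of all genes.

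Many of the genes higher at 10 min were lower again at 15 min. Between those times 147 of the 623 (23.6%, background 10.2%) fell and 30 (4.82%, background 6.71%) rose. Of the 214 genes higher at 10 min, 121 (56.5%) were lower at 15 than at 10 min, 47 (22.0%) were still called higher than naive at 15 min and 0 were called lower. Over all 1690 tested genes that were higher at 10 min these shares were 49.3% and 26.1%, and 108 genes were called lower than naive at 15 min. Both sets were chosen for high values in the 10 min libraries, which the comparison with 15 min also uses. Such a choice by itself favours a fall. Photoreceptor and fat body genes had higher summed levels at 15 min, as given above, and their part in this difference was not tested. The share that rose between 10 and 15 min was 3.19%, 3.17% and 2.71% without replicates 1, 2 and 3 of the 10 min group, against 3.93%, 3.88% and 4.59% of all genes. Without replicate 3 of the 15 min group it was 3.17%, against 5.37%.

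The share of genes higher at 10 min differed with what else they held. It was 27.5% of the 393 genes with no CoRest-C or Rpd3 site in their interval and 46.1% of the 230 with one elsewhere. It was 28.4% of 925 genes whose broad CBP sites all shared sequence with the deacetylase proteins, 18.3% of 1723 genes with narrow CBP-only sites alone and 7.76% of 6499 genes with no CBP site. These sets differ in length and level, with median lengths of 5.97, 23.4, 5.27, 3.73 and 1.27 kb in that order. Within classes of gene length, genes with a member were called higher at 10 min more often than other tested genes, 20.1% against 9.36% under 5 kb, 33.2% against 22.2% from 5 to 20 kb, 47.5% against 31.6% from 20 to 50 kb and 45.3% against 26.1% over 50 kb. Of 207 genes whose strongest member had a fold enrichment of 24.2 to 56.2, 41.5% were higher, against 31.2% of 208 genes at 13.3 to 24.1 and 30.3% of 208 genes at 3.51 to 13.3. These shares are descriptions over genes, and differences between them were not tested.

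**Figure D4:**
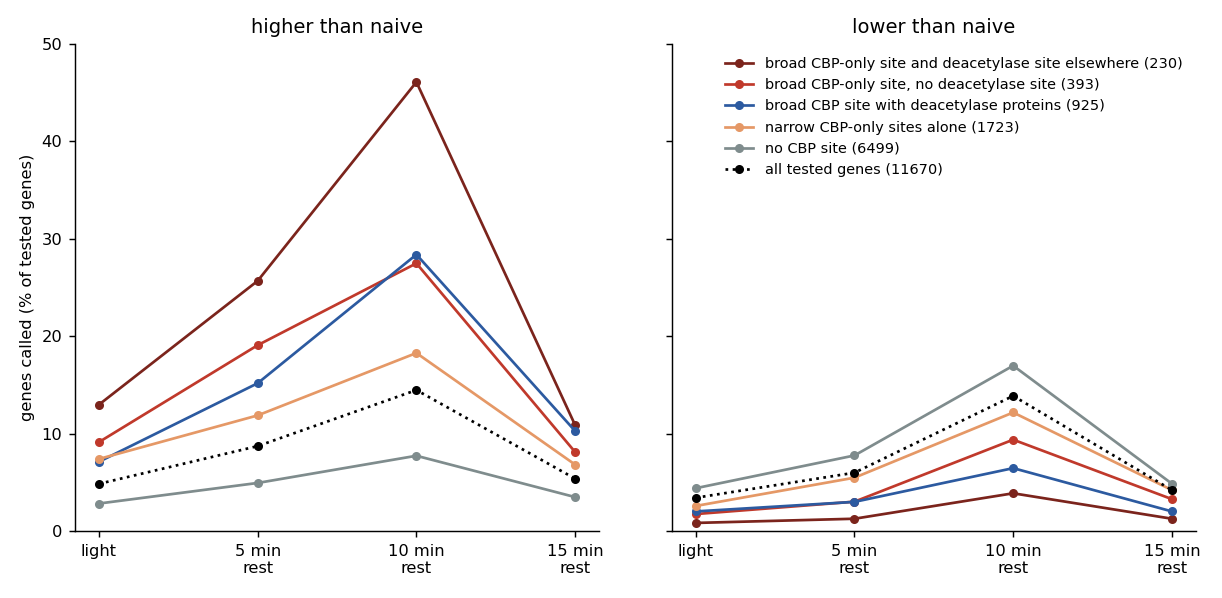
Percent of tested genes called higher (left) or lower (right) than naive at each time, at an adjusted p under 0.05, for sets of genes defined by their CBP sites, with the number of tested genes in brackets. Points are shares of each set at 1 time and the dotted line is all tested genes. At 10 min of rest the genes with broad CBP-only sites reach 46.1% and 27.5% higher, and the genes with no CBP site 7.76%.

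The named genes below carry log2 fold changes with standard errors, and adjusted p from edgeR's quasi-likelihood test. *stv*, which encodes a BAG co-chaperone of Hsp70, had the largest rise. Its level was 163, 142 and 166 normalized CPM in naive libraries, 247, 231 and 240 right after the light, and 1966, 2036 and 1913 at 10 min of rest. All illuminated libraries lay above the naive ones, and the log2 fold change at 10 min was 3.65 ± 0.09 (adjusted p = 8.22e-23). Its member (chr3L:13479519-13480824, fold enrichment 13.5) covers a start site of the gene, which also holds an Rpd3 site elsewhere. Heat shock genes rose together at that time, 14 of the 14 tested including *stv*, from a summed 1700 to 1859 normalized CPM in naive libraries to 18916 to 19177. The part of this response in the rise of *stv* was not tested, and no other gene of that list held a member.

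*Pdk*, the pyruvate dehydrogenase kinase gene, was at 210, 206 and 190 normalized CPM in naive libraries and at 686, 697 and 651 at 10 min. It had already risen right after the light (0.47 ± 0.08, adjusted p = 0.000207) and reached 1.75 ± 0.08 at 10 min (adjusted p = 4.31e-16). Its member is intronic, 4418 bp from a start site. *Mrp4*, which encodes an ABC transporter, was at 96.3, 81.4 and 92.6 normalized CPM in naive libraries and at 258, 285 and 277 at 10 min (1.60 ± 0.10, adjusted p = 2.51e-13). Its member at the promoter is among the strong ones, with a fold enrichment of 44.4.

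*CG14186* went on rising, from 91.4, 78.1 and 78.1 normalized CPM in naive libraries to 261, 263 and 242 at 10 min and 373, 364 and 365 at 15 min. The groups did not overlap, and its log2 fold change against naive flies was 1.63 ± 0.09 at 10 min (adjusted p = 6.44e-14) and 2.15 ± 0.09 at 15 min (adjusted p = 1.25e-16). *CG12643* rose by 2.07 ± 0.16 at 10 min (adjusted p = 6.49e-11) from 8.35, 6.09 and 9.59 normalized CPM, and *dlt* by 1.49 ± 0.22 (adjusted p = 7.89e-06) from 4.12, 4.33 and 3.57. The member at *dlt* also covers start sites of *Cdc37* and *alpha-Spec*, and that at *CG14186* also covers a start site of *lncRNA:CR44679*.

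Of the 5 glutathione S-transferase genes of the epsilon cluster with a member, 4 rose at 10 min and 0 fell, where 7 of the 11 genes of that list, drawn up after the members had been seen, rose and 1 fell. Their enzymes conjugate toxic compounds. A single member, chr2R:18405886-18407240, lay at *GstE6*, *GstE7* and *GstE8*, so these genes share it. At 10 min *GstE7* rose by 1.43 ± 0.13 (adjusted p = 1.03e-09) and *GstE8* by 1.70 ± 0.18 (adjusted p = 3.15e-08). *GstE5*, under a neighbouring member that also touches *GstE6*, rose most right after the light among the named genes (1.17, adjusted p = 1.85e-06), from 10.2 to 23.1 normalized CPM on average. Reads could be split between related genes of the cluster. Also named right after the light was *CG31809* (0.71, adjusted p = 0.000815).

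Of the 9 nuclear receptor and ecdysone response genes with a member, 6 rose at 10 min and 0 fell, where 9 of the 21 tested genes of the list rose and 1 fell. *Eip93F*, an ecdysone-induced transcription factor gene, was at 1599, 1661 and 1515 normalized CPM in naive libraries and at 3025, 3012 and 2483 at 10 min (0.84 ± 0.11, adjusted p = 1.57e-06). *Eip74EF* was at 47.7, 48.0 and 47.2 and then at 74.2, 86.6 and 75.2 (0.72 ± 0.11, adjusted p = 1.94e-05). For both genes the 10 min libraries lay above all naive ones. *Hnf4*, a regulator of lipid and glucose metabolism, rose by 0.64 (adjusted p = 1.12e-05), *EcR* by 0.50 (adjusted p = 0.00186) and *ftz-f1* by 0.31 (adjusted p = 0.0173, not called under 5 of 12 other fits). *Eip75B* passed the threshold narrowly (0.29, adjusted p = 0.0489) and was not called under 8 of 12 other fits, with an adjusted p of up to 0.246. *Hr4*, *Hr46* and *knrl* had log2 fold changes of 0.36, 0.24 and 0.38 and were not called.

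Among CBP and corepressor genes with a member, 4 of 6 rose at 10 min and 0 fell, where 4 of the 24 tested genes of the list rose, the same 4, and 4 fell. *ttk* was at 103, 86.7 and 118 normalized CPM in naive libraries and at 213, 211 and 208 at 10 min, without overlap (1.04 ± 0.10, adjusted p = 2.40e-09). *trx* rose by 0.70 (adjusted p = 3.36e-06), *Mi-2* by 0.29 (adjusted p = 0.0233) and *HDAC4* by 0.26 (adjusted p = 0.0441). The last 2 were not called under 6 and 7 of 12 other fits. *Trl*, under the widest member, was at 26.5, 18.1 and 28.8 normalized CPM in naive libraries and at 29.2, 34.2 and 30.7 at 10 min, and *psq* at 211, 204 and 206 and then at 261, 237 and 231. Neither was called, with log2 fold changes of 0.36 ± 0.17 (adjusted p = 0.119) and 0.23 ± 0.09 (adjusted p = 0.0541).

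At 10 min 14.5% of all tested genes and 34.3% of those with a member were higher. In the cAMP and calcium list 3 of 7 genes with a member rose and 0 fell, where 5 of the 30 genes of the list rose and 3 fell with a median log2 fold change of -0.02. The 3 genes were *for*, the cGMP-dependent protein kinase gene (0.76, adjusted p = 4.81e-07), and the phosphodiesterase genes *Pde11* (0.50, adjusted p = 0.000129) and *Pde8* (0.28, adjusted p = 0.0194, not called under 3 of 12 other fits). The memory gene *dnc*, also a phosphodiesterase, had -0.18 (adjusted p = 0.215). Of 11 RNA-binding regulators 3 rose and 0 fell, where 5 of the 23 genes of the list rose and 0 fell, namely *bru-2* (0.77, adjusted p = 2.79e-05), *msi* (0.52, adjusted p = 0.000116) and *ps* (0.43, adjusted p = 0.000816). Both activity-regulated factors with a member rose, where 7 of the 9 genes of the list rose and 0 fell, *grh* (0.72, adjusted p = 1.33e-06) and *CrebA* (0.41, adjusted p = 0.0142), the latter not called under 3 of 12 other fits. Of 8 homeodomain and patterning genes *hth* (0.52, adjusted p = 0.000309) and *pdm3* (0.53, adjusted p = 0.000115) rose, and *pros* fell by 0.33 (adjusted p = 0.00904), where 12 of the 40 tested genes of the list rose and 4 fell. Of 8 adhesion genes 3 rose and 0 fell, among them *Fas3* (0.51, adjusted p = 7.19e-05) and *Ten-m* (0.54, adjusted p = 5.63e-05), where 12 of the 89 genes of the list rose and 10 fell. Of 2 glial genes *Indy*, which encodes a citrate transporter, rose by 0.66 (adjusted p = 5.89e-07), where 2 of the 9 genes of the list rose and 3 fell.

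Among the factors of stress responses, a list drawn up after the members had been seen, 4 of 5 genes with a member rose at 10 min and 0 fell, beside 8 of 11 in the list. *foxo*, a forkhead factor gene of insulin signalling, was at 149, 113 and 156 normalized CPM in naive libraries and at 328, 328 and 293 at 10 min (1.18 ± 0.10, adjusted p = 1.84e-10). At 15 min it was at 152, 151 and 159, and these libraries overlapped the naive ones. *Clk*, the circadian clock gene, was at 173, 134 and 175, then at 358, 357 and 329 at 10 min (1.12 ± 0.10, adjusted p = 4.96e-10) and at 195, 196 and 183 at 15 min. Of the 4 clock genes with a member, 1 rose at 10 min and 0 fell. In the whole clock list, also drawn up after the members had been seen, 2 of 15 genes rose and 4 fell. *Atf3* rose by 0.42 (adjusted p = 0.00349), *cnc* by 0.47 and *Xrp1* by 0.38 at 10 min. Of the glycolytic genes under wide members, *Hex-A* rose by 0.29 (adjusted p = 0.0264) and *PyK* fell by 0.25 (adjusted p = 0.0169).

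Many members sat at genes whose RNA was not called. *bun*, with 7 members and the highest fold enrichment, was at 990, 1121 and 999 normalized CPM in naive libraries and at 1036, 1048 and 995 at 10 min, and these groups overlapped (-0.01 ± 0.09, adjusted p = 0.929). *Mnt*, with 8, had 0.00 ± 0.17 (adjusted p = 0.989), *phl* had -0.27 (adjusted p = 0.109) and *Pdp1* 0.12 (adjusted p = 0.388). Nor was *Mef2* called (0.00, adjusted p = 0.982), or the potassium channel genes *Sh* (0.25, adjusted p = 0.0891) and *Shal* (-0.20, adjusted p = 0.0903).

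Fewer genes with a member fell at 10 min. *mRpS16*, a mitochondrial ribosomal protein gene, went from 15.0, 25.3 and 17.0 normalized CPM to 10.9, 10.2 and 10.5 (-0.85 ± 0.20, adjusted p = 0.0017). *CG8173* had -0.98 (adjusted p = 0.0129), *Rrp40*, an exosome subunit gene, -0.83 (adjusted p = 0.027), *D*, a Sox factor gene, -0.82 (adjusted p = 0.00411), *Rlb1* -0.78 (adjusted p = 0.00835), *CR44018* -0.74 (adjusted p = 0.0402), *CG14757* -0.72 (adjusted p = 0.000202) and *CG13001* -0.68 (adjusted p = 0.0166). Of these, *CG8173*, *Rrp40*, *CR44018* and *CG13001* each lost the call under 2 to 4 of 12 other fits. The member at *CG8173* covers a start site of *raskol* and none of *CG8173*, and that at *mRpS16* also covers a start site of *cg*. Of 4 transmitter receptor genes with a member 0 rose and 2 fell, where 4 of the 37 tested genes of the list rose and 8 fell. These were the acetylcholine receptor genes *nAChRalpha2* (-0.33, adjusted p = 0.00785) and *mAChR-A* (-0.31, adjusted p = 0.0251, not called under 5 of 12 other fits). *nSyb*, the synaptobrevin gene and the 1 pan-neuronal gene with a member, fell by 0.31 (adjusted p = 0.00751), and of the 6 genes of that list 1 rose and 2 fell. Right after the light *Prx2540-2* and *Prx2540-1* fell by 0.93 and 0.77 on the log2 scale (adjusted p = 0.00163 and 0.0158), but they are near-identical copies and their counts are uncertain. The lncRNA genes *CR32218* (-1.28, adjusted p = 0.0127) and *CR45962* (-1.15, adjusted p = 0.0392), were also lower then, though *CR45962* was not called under 6 of 12 other fits.

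At 5 min of rest the largest falls were in *CG5535* (-0.64, adjusted p = 0.000366), *CR43466* (-0.54, adjusted p = 0.0496), *CG6044* (-0.51, adjusted p = 2.64e-05) and *fz*, a Wnt receptor gene (-0.46, adjusted p = 0.00597). At 15 min they were in *CG42331* (-0.81, adjusted p = 0.0124), *mRpS16* (-0.77, adjusted p = 0.0107), *D* (-0.75, adjusted p = 0.0211) and *miple2* (-0.65, adjusted p = 0.00123). *CR43466* was not called under 6 of 12 other fits, *D* under 4, and *CG42331* and *mRpS16* under 2 each. *norpA*, the photoreceptor gene with a member, was the only gene of that list with one, and was higher at 15 min than in naive flies (0.32, adjusted p = 0.00592) beside the higher summed level of the list.

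**Figure D5:**
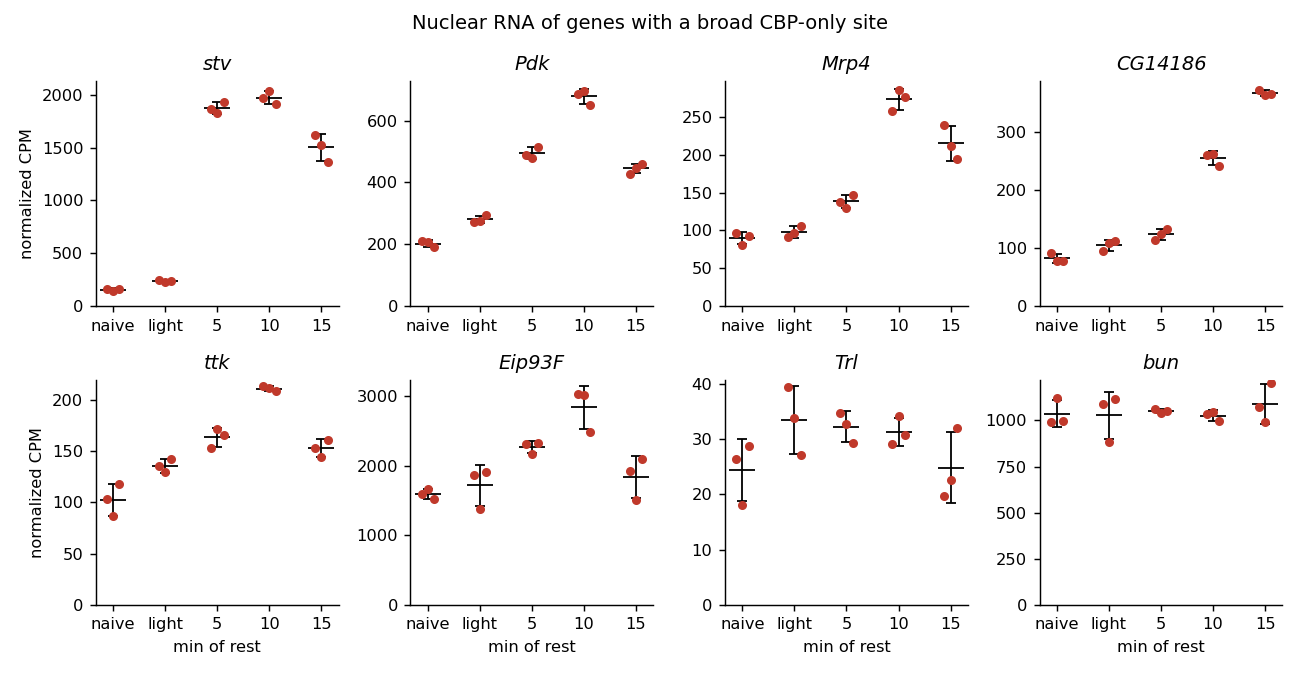
Normalized CPM of 8 genes with a broad CBP-only site in each of the 15 libraries. Points are libraries, horizontal bars are means and whiskers the SD of 3 libraries, and every axis starts at 0. *stv*, *Pdk*, *Mrp4*, *ttk* and *Eip93F* are highest at 10 min of rest, *CG14186* at 15 min, and *Trl* and *bun* were not called at any time.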

How the data were processed

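The authors used STAR to place ChIP-seq reads on dm6, kept primary alignments above a mapping quality limit and ran MACS for peaks. The deposited site lists give the fold enrichment and the −log10 p-value (p score) of each site. For RNA-seq the deposited values are raw HTSeq counts per gene over exons. The strand setting is not given in the sources used here, so overlapping genes may share reads. A deposited table of the authors' own DESeq2 comparison (log2 fold changes, p-values) was not used.

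Members, lists and tests were chosen with earlier results of these data known. Repeated entries were merged. Sites were assigned to genes in the Ensembl BDGP6.54 annotation with FlyBase identifiers (17796 genes), and sequence was read from the RefSeq genome of release 6. Counts were scaled with TMM and tested in edgeR 4.0.16 (R 4.3.3) in 1 fit of 5 groups, for 11670 of 15634 genes with at least 1 count. Replicates are separate samples by their labels, and p-values measure only the spread between them, which may be technical. Standard errors were calculated back from the F statistic. Normalized CPM use the TMM factors, and 211 tested genes had no position under their identifier. Listed genes among these were placed by symbol (*Imp*, *Fas1* and *Ca-beta* hold a member) and are counted in the lists but not among the 623 tested genes. *FASN1* was placed in the same way but not matched to the count table. Depth of 10392334 to 18809246 counts per library sets the precision, and the read depth behind sites is not used here. Code was tested on simulated data. Python 3.11.15, pandas 2.3.3 and DESeq2 1.42.0 (as an alternative) were also used.

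By rule, the text names the 10 widest and 10 strongest members, the 3 on each side of the width threshold, genes with at least 4 members, the 8 (10 min) or 4 (other times) called genes with the largest and smallest fold changes among those with a mean of at least 1 log2 CPM and groups that did not overlap, and listed genes with a member. Other named genes were chosen after their values had been seen. Alternatives were other scalings and filters, other gene assignments and thresholds, the replicate number as a block, the 6 compared libraries alone and each library left out. The sequence of 1 further window is not reported here.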

Additional observations from a re-analysis of the deposited data

Results flagged for a closer look

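For 7 of the genes named at 10 min of rest, the change from naive flies differed between 15 and 10 min of rest by the test of the difference itself (edgeR's quasi-likelihood test, adjusted p under 0.05). It was smaller at 15 min for *stv* by 0.39 (log2 difference -0.39 ± 0.08, adjusted p = 0.000943), *CG12643* (-0.55 ± 0.15, adjusted p = 0.0106), *Pdk* (-0.61 ± 0.08, adjusted p = 1.55e-06) and *Mrp4* (-0.34 ± 0.09, adjusted p = 0.0113). It was more positive at 15 min for *CG14186* (0.52 ± 0.09, adjusted p = 9.05e-05), which was still rising, and for *CG8173* (1.10 ± 0.30, adjusted p = 0.00933) and *CG14757* (0.57 ± 0.14, adjusted p = 0.00364), which were lower than naive at 10 min. These genes were named for the size of their change at 10 min, and the same 10 min libraries enter this test. Such a choice by itself favours a smaller change at 15 min.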

How the results depend on the processing

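The share of member genes higher at 10 min of rest kept within 1.5 times its value under all 19 alternatives (25.4% to 37.3%). Leaving out 1 library gave 28.1% to 34.7% there, and 4.75% to 7.94% for genes lower at 10 min. It gave 5.89% to 10.5% higher and 0.795% to 3.33% lower right after the light, 14.4% to 22.1% and 1.43% to 3.49% at 5 min, 7.45% to 9.39% and 1.11% to 3.81% at 15 min, and 2.71% to 4.44% higher and 15.8% to 21.6% lower between 10 and 15 min. In what follows, the share of all genes in the same fit is in brackets. The share lower at 5 min was 1.43% (5.95%) without naive replicate 1 and 1.58% (5.2%) without naive replicate 3. Without replicates 1 and 2 of its own group it was 1.59% (5.74%) and 1.43% (3.53%). The share lower at 15 min was 1.58% (3.24%) without naive replicate 3 and 1.11% (3.0%) without its own replicate 2. With library size alone 14.4% (24.4%) were lower at 10 min, 2.73% (4.89%) right after the light, 5.46% (11.1%) at 5 min and 4.98% (8.06%) at 15 min, and 13.6% (5.97%) higher at 5 min. With only the 6 libraries compared 4.56% (2.49%) were higher and 0.814% (2.0%) lower right after the light, 13.9% (5.79%) and 0.653% (3.42%) at 5 min, and 0.656% (2.42%) lower at 15 min. At an adjusted p under 0.01, a stricter call by construction, these were 4.01% lower at 10 min, 5.62% higher and 0.482% lower right after the light, 14.3% and 0.642% at 5 min, 0.321% lower at 15 min, and 2.41% higher and 15.6% lower between 10 and 15 min. The share of all genes was not calculated at that threshold. With members of at least 1200 bp 0.957% (3.45%) were lower right after the light. The number of members was 1054 at a width of 800 bp and 404 at 1200 bp. The share near start sites was 48.9% with 1 start site per gene and 59.8% within 500 bp, and the share of windows with GAGAG was 93.3% at summits. The cause was not tested. For single genes, 1331 values kept their side of the threshold, 82 lost it, 27 gained it and 0 changed sign as calls. Libraries with the same replicate number did not deviate together (correlations of -0.103 to 0.049), and with the replicate block 33.7% were higher at 10 min. Members above the median fold enrichment, genes with a start inside a member and summit windows were alternatives chosen after seeing the data. Binding has no replicate spread, and the depth behind sites is unknown here.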
